A study of Mus musculus with 9 samples.

Results

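The cytochromes P450 of families 1 to 3 are the haem enzymes with which the liver oxidises drugs, steroids and other lipophilic compounds. Their genes were taken by symbol, as every name in the count tables made of Cyp, a family number of 1, 2 or 3, a subfamily letter and a gene number, with pseudogenes left out. The rule found 60 genes of the 23420 in the tables. Livers came from male C57BL/6 mice that ate one of 3 purified AIN-93G diets without soy for 50 days, begun at 5 weeks of age, and were taken at 12 weeks. Iron per kg of food was 2.5 mg in the low-iron group, 37.5 mg in the iron-sufficient group and 1000 mg in the high-iron group, with 3 mice and 3 libraries in each. All 9 mice were of 1 strain and 1 sex, and RNA came from whole liver, so every value is a mixture over hepatocytes and the other liver cells. The genetic model named in the series' title is not analysed here. The comparisons asked whether either extreme of dietary iron changed the messages of these enzymes, and whether the extremes differed from each other.

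A cytochrome P450 carries haem, an iron porphyrin, in its active site, where oxygen is activated with electrons that reach it from the reductase Por or from cytochrome b5. Most enzymes of these families are made in hepatocytes, and many of them mainly in the hepatocytes around the central vein. Their genes answer to the aryl hydrocarbon receptor (family 1), to the receptors CAR and PXR (Cyp2b, Cyp2c and Cyp3a), to the hepatocyte factor HNF4A, and, for the forms that differ between the sexes, to growth hormone acting through STAT5B. In the mouse most of the genes lie in tandem clusters of close copies, so neighbours can share both regulatory sequence and coding sequence.

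The libraries held 21994132 to 33807087 reads assigned to genes, of which 0.739% to 1.47% fell on the 60 genes. Ribosomal precursor Rn45s took 12.5% to 43.7% of the gene reads, with the highest shares in low-iron replicate 1 (43.7%) and high-iron replicate 12 (40.5%). Levels are therefore given as counts-per-million after TMM scaling (CPM), which sets the libraries to the level shared by most genes. Hepatocyte marker messages, among them Alb and Apoa1, summed to 70906 to 80339 CPM in low-iron, 57744 to 77778 CPM in sufficient-iron and 53219 to 63761 CPM in high-iron livers, and Xist, the female transcript, had 0 to 4 reads in any library. Sufficient-iron replicate 6 stood furthest apart in these enzymes: 21.4% of the members tested lay more than 1 log2 unit from the mean of the other libraries of their diet, against 4.61% of all genes tested. In the other libraries the share was 4.76% to 11.9% of the members and 1.49% to 7.45% of all genes, and higher for the members in each. Relative to the mean of sufficient-iron replicates 2 and 10, replicate 6 held Cyp2b10 at 3.24-fold and Cyp3a11 at 1.86-fold, with Cyp2c54 at 0.301-fold and Cyp2d9 at 0.387-fold. Member log2 fold changes that the text describes, and that leaving out low-iron replicate 1, high-iron replicate 12 or sufficient-iron replicate 6 moved by more than 1.5 times, are also given without that library. The labels give separate mice for the libraries of a diet. The edgeR p-values set each difference against the spread between mice within diets, estimated from all 9 libraries together. Each comparison of 2 diets therefore also draws on the libraries of the third diet.

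Of the 60 members, 42 passed the filter on low counts and were tested, and 28 of these averaged at least 10 CPM. No read was found in any library for 6 members, Cyp2b23, Cyp2c66, Cyp2j12, Cyp2w1, Cyp3a41a and Cyp3a41b, which allows up to 0.234 CPM in the shallowest library and 0.069 CPM in the deepest (3 reads in a library, counting error only). The other 12 members that were not tested, such as Cyp2c40 and Cyp3a44, stayed at 0.546 CPM or below in every library. Several of the members without reads or near 0 (Cyp3a41a, Cyp3a41b, Cyp3a44, Cyp2c40) are known in the mouse as female-type forms. For Cyp3a41a and Cyp3a41b only 1.39% and 6.50% of the 50-base stretches of the transcript occur in no other gene, and reads that matched several places were not counted by the authors.

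Per length, Cyp2e1, the ethanol- and acetone-oxidising enzyme of central-vein hepatocytes, was the most abundant message of the group, with a mean of 2037 CPM per kilobase over the 9 libraries. Cyp2c29 followed with 724 and Cyp3a11, the main mouse counterpart of human CYP3A4, with 457 CPM per kilobase. Summed over all 60 members, the level was 13759 ± 994 CPM in low-iron, 9626 ± 983 CPM in sufficient-iron and 10248 ± 534 CPM in high-iron livers (SD, n = 3 each). The low-iron libraries lay between 12678 and 14633 CPM, above the highest of the other 6 libraries (10809 CPM, high-iron replicate 8). The subfamilies shared this unequally. Cyp2c messages summed to 3714 ± 755, 2223 ± 626 and 1869 ± 126 CPM in low-, sufficient- and high-iron livers (SD, n = 3 each), and Cyp2d messages to 1778 ± 91.7, 1197 ± 262 and 1316 ± 160 CPM in the same order. Cyp2e1 had 4331 ± 795, 2870 ± 754 and 4040 ± 314 CPM, with its lowest mean in the middle of the range of iron. Cyp3a messages summed to 1602 ± 100, 1554 ± 490 and 1179 ± 67.2 CPM, and the sufficient-iron spread there was wider than the distance between any of the means.

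**Figure D1:**
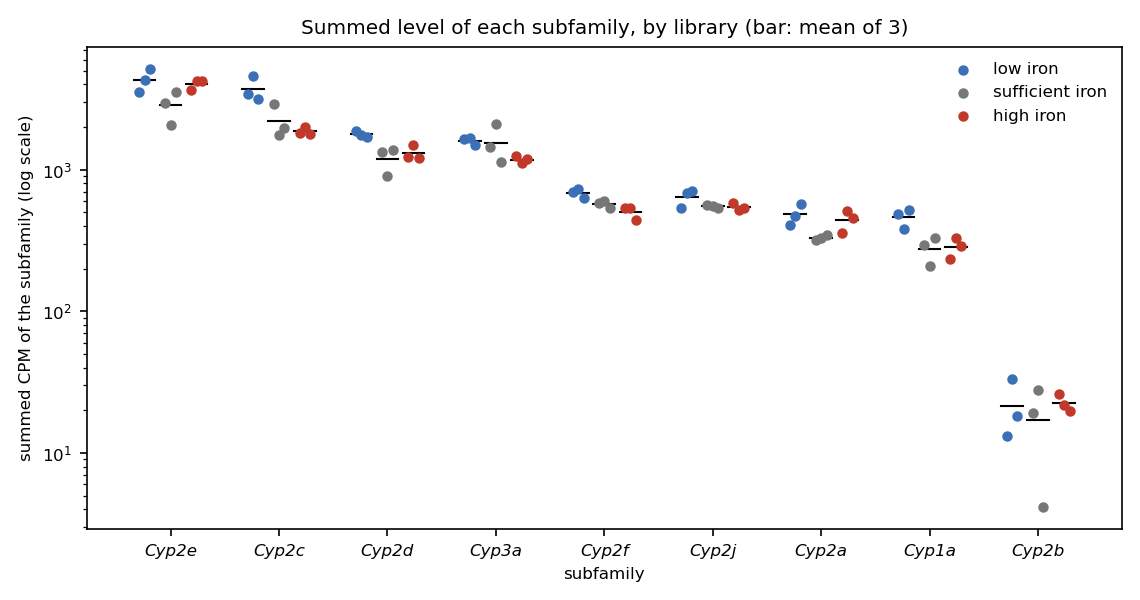
Summed CPM of each subfamily (log scale) in each library, coloured by diet, with a bar at the mean of the 3 libraries of a diet. All 3 low-iron libraries of Cyp2c (3152 to 4572 CPM) and Cyp2d (1691 to 1874 CPM) sat above every library of the other diets.

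Low-iron livers were compared with sufficient-iron livers first. No member passed the test in edgeR's quasi-likelihood fit with Benjamini-Hochberg adjustment over the 13020 genes tested (lowest adjusted p among the members 0.446), and neither did any other gene (0% called). At an unadjusted p under 0.05, 15 of 42 members were higher in low-iron livers and 0 were lower, or 35.7% of the members, beside 5.79% of all tested genes higher and 5.41% lower. The same number, 15, had every low-iron library above every sufficient-iron library, beside 8.81% of all genes, and 0 had the reverse, beside 7.83%. The log2 fold change was positive for 33 of 42 members, beside 49.4% of all genes, and its median was 0.34, against -0.00 over all genes tested. At the same unadjusted threshold, 17 members were higher without sufficient-iron replicate 6 (2.67% of all genes), 16 without low-iron replicate 1 (3.05% of all genes) and 20 of 41 without both libraries (3.36% of all genes). DESeq2 called 11 members higher at an adjusted p under 0.05, beside 105 genes called in either direction. It gave an adjusted p to 1156 genes and none to 11864, so only those 1156 could be called. The 105 are 0.806% of the 13020 genes tested but a larger share of those 1156.

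High-iron livers differed from sufficient-iron livers in 1 member called, Cyp2c67, which fell, beside 0.115% of all genes called lower and 0.0998% called higher (0.215% in all). Unadjusted, 7 members were lower and 2 higher, beside 5.12% and 4.16% of all genes. The diets did not overlap for 7 members that were lower and 2 that were higher, beside 8.85% and 8.99% of all genes. A positive log2 fold change was found for 20 of 42 members, beside 48.1% of all genes, with a median of -0.03 against -0.01 over all genes. High-iron livers differed from low-iron livers in 4 members called, all lower: Cyp2c67, Cyp2c68, Cyp2a12 and Cyp2c38, beside 0.346% of all genes called lower and 0.161% called higher (0.507% in all). Unadjusted, 18 of 42 members were lower and 0 higher, beside 5.44% and 4.22% of all genes. In 24 members (57.1%) every high-iron library lay below every low-iron library, beside 8.15% of all genes, and in 0 members above, beside 7.59%. Positive log2 fold changes were found for 8 of 42 members, beside 48.8% of all genes, with a median of -0.45 against -0.01 over all genes. These comparisons share libraries, so the counts are not separate evidence. The number of members called in high-iron against low-iron livers was 4 without low-iron replicate 1 (0.801% of all genes called), 6 without sufficient-iron replicate 6 (0.855%) and 9 without both (2.19%). It was 0 without high-iron replicate 4, 8 or 12 (0% to 0.0984% of all genes called) and 0 without low-iron replicate 9 (0.0455%). A test of any difference among the 3 diets called 2 members, Cyp2c67 (adjusted p = 0.0251) and Cyp2c68 (adjusted p = 0.0432), beside 0.215% of all genes.

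**Figure D2:**
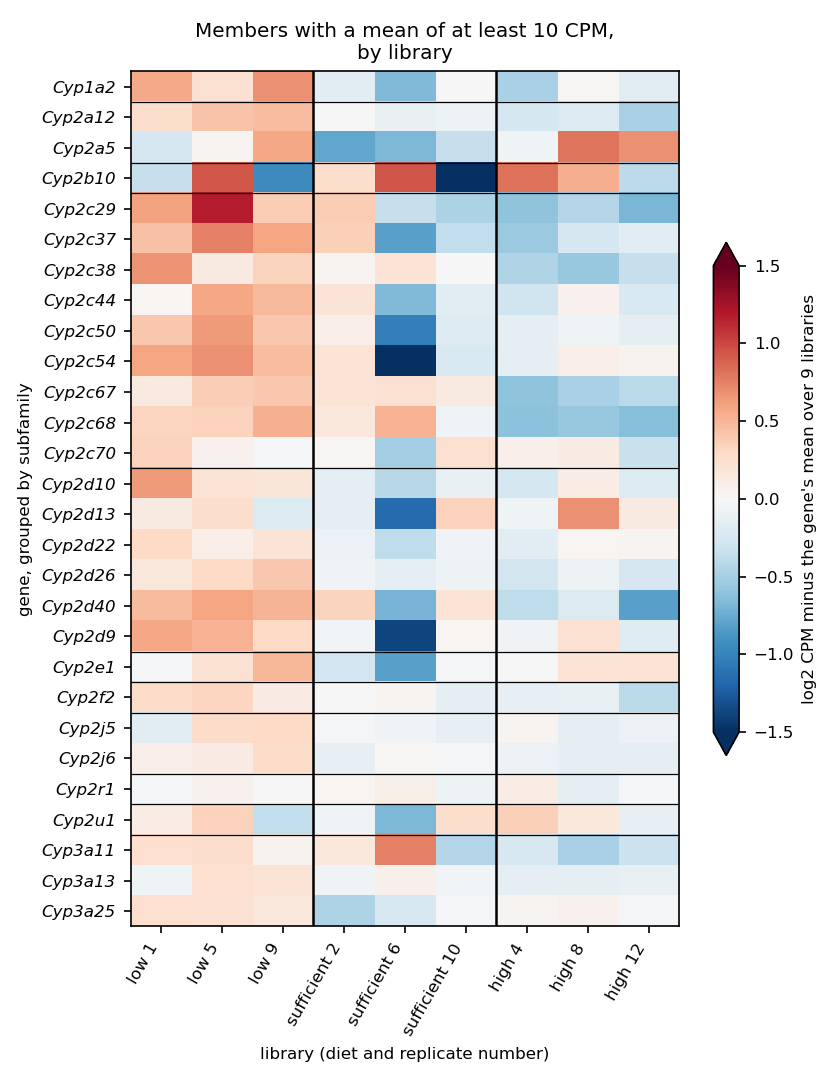
Log2 CPM minus the gene's own mean over the 9 libraries, for the 28 members with a mean of at least 10 CPM, grouped by subfamily, with the libraries in columns by diet. The low-iron columns are mostly above the mean (positive median deviation of 0.19 to 0.35 over the tested members), and sufficient-iron replicate 6 is below it for Cyp2c54 and Cyp2d9 and above it for Cyp2b10 and Cyp3a11.

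The Cyp2c enzymes, which oxidise drugs and steroids and turn arachidonic and linoleic acid into epoxides, held most of the called members. Cyp2c67 had 73.5, 85.5 and 88.1 CPM in low-iron, 76.3, 77.4 and 73.0 CPM in sufficient-iron and 43.6, 47.0 and 49.8 CPM in high-iron livers. All high-iron libraries lay below all of the other 6, and the low-iron and sufficient-iron libraries overlapped. It fell in high-iron livers by 0.69 ± 0.11 against sufficient-iron livers (log2 fold change ± SE, edgeR adjusted p = 0.0341) and by 0.82 ± 0.11 against low-iron livers (edgeR adjusted p = 0.0142). The call against sufficient-iron livers was lost without low-iron replicate 5 or 9 (adjusted p = 0.0560 and 0.0517) and without any one sufficient-iron or high-iron library (0.0827 to 0.222), with log2 fold changes of -0.74 to -0.64, and with the Rn45s share as a covariate (0.0947). Against low-iron livers it was lost without low-iron replicate 9 (adjusted p = 0.0732) or any one high-iron library (0.0539 to 0.0886).

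Cyp2c68 had 57.0, 57.9 and 66.3 CPM in low-iron, 51.2, 65.8 and 44.0 CPM in sufficient-iron and 30.0, 30.7 and 29.4 CPM in high-iron livers, the last again below all other libraries. It fell by 1.01 ± 0.14 in high-iron against low-iron livers (edgeR adjusted p = 0.0193), and against sufficient-iron livers the log2 fold change was -0.84 ± 0.14 (adjusted p = 0.0540). Cyp2c38, an arachidonic acid epoxygenase in the mouse, had 81.1, 55.5 and 64.1 CPM in low-iron, 52.1, 58.6 and 50.7 CPM in sufficient-iron and 37.2, 34.4 and 39.8 CPM in high-iron livers. High-iron libraries did not overlap with those of either other diet. It fell by 0.85 ± 0.14 against low-iron livers (edgeR adjusted p = 0.0331), with -0.54 ± 0.14 against sufficient-iron livers (adjusted p = 0.234). The call of Cyp2c68 against low-iron livers was lost without low-iron replicate 5 or 9 (adjusted p = 0.0511 and 0.0804) or any one high-iron library (0.0924 to 0.117), and that of Cyp2c38 without low-iron replicate 9 (0.106), sufficient-iron replicate 10 (0.0556) or any one high-iron library (0.125 to 0.161). Cyp2c38 also missed the threshold with the Rn45s share as a covariate (0.0610) and with only the 6 libraries compared (0.0572).

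The Cyp2c genes with an unadjusted p under 0.05 in high-iron against sufficient-iron livers lie in 1 stretch of their cluster. All 15 Cyp2c members are on chromosome 19 of GRCm38, 14 of them between 39007019 (the start of Cyp2c55) and 40187333 (the end of Cyp2c70). In chromosomal order Cyp2c38, Cyp2c39, Cyp2c67, Cyp2c68, Cyp2c40 and Cyp2c69 form an unbroken run, and each of the 5 tested among them had an unadjusted p under 0.05 and a lower level in high-iron than in sufficient-iron livers. Besides the members above these were Cyp2c39, a retinoic acid-oxidising form, with -0.53 ± 0.19 (unadjusted p = 0.0196) at 1.71 to 3.14 CPM, and Cyp2c69, with -0.78 ± 0.35 (unadjusted p = 0.0475) at 0.346 to 1.33 CPM. Next to the run, Cyp2c29 had -0.48 ± 0.25 (unadjusted p = 0.0839, and -0.16 without sufficient-iron replicate 2) on one side and Cyp2c37 had -0.12 ± 0.25 (unadjusted p = 0.642) on the other. Beyond Cyp2c37 the values were 0.39 ± 0.36 for Cyp2c54 (0.00 without sufficient-iron replicate 6), 0.18 ± 0.23 for Cyp2c50 and 0.02 ± 0.20 for Cyp2c70. At the far end, beyond Cyp2c29 and the untested Cyp2c65 and Cyp2c66, Cyp2c55 had -0.36 ± 0.33, and 0.11 without sufficient-iron replicate 6. Cyp2c39 is named by rank of p, and Cyp2c69 and the other neighbours were added for their position after their values were seen. The run was noticed in these data, and whether it differs from the rest of the cluster was not tested.

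The bases just before an annotated start are shown for the 5 tested genes of this run and for the neighbour on each side, Cyp2c29 and Cyp2c37, so that the run can be compared with its flanks. They are the 150 bases before the RefSeq start, on the gene's strand in GRCm38.p6: Cyp2c29 at chr19:39286935-39287084 (plus strand), Cyp2c38 at chr19:39463076-39463225 (minus strand), Cyp2c39 at chr19:39510672-39510821 (plus), Cyp2c67 at chr19:39649043-39649192 (minus), Cyp2c68 at chr19:39741102-39741251 (minus), Cyp2c69 at chr19:39886770-39886919 (minus) and Cyp2c37 at chr19:39992274-39992423 (plus). For Cyp2c29, Cyp2c38, Cyp2c39 and Cyp2c67 the start used lies inside the RefSeq span of the gene. That span begins at 39287044 for Cyp2c29 and 39347346 for Cyp2c39, and ends at 39463103 for Cyp2c38 and 39649079 for Cyp2c67. Their stretches therefore lie partly or wholly within the span. Capitals mark CAAAGTCCA, the core that HNF4A prefers, or, where that is missing, its first 7 bases CAAAGTC.
Cyp2c29: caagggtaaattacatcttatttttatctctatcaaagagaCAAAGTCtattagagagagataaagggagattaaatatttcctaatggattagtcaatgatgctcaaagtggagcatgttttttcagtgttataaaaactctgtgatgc
Cyp2c38: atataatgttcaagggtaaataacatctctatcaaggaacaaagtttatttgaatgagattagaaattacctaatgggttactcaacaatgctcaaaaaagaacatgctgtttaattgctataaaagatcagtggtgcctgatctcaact
Cyp2c39: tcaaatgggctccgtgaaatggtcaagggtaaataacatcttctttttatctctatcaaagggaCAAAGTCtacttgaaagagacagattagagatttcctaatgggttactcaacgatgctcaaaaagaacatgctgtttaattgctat
Cyp2c67: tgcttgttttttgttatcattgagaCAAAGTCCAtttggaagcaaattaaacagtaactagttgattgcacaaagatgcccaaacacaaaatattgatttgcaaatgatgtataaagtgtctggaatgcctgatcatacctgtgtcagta
Cyp2c68: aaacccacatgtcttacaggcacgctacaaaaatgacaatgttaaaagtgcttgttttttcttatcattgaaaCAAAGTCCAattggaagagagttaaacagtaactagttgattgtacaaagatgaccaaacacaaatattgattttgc
Cyp2c69: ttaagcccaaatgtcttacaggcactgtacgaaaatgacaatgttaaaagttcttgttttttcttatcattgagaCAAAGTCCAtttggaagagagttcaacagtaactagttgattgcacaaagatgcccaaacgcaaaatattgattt
Cyp2c37: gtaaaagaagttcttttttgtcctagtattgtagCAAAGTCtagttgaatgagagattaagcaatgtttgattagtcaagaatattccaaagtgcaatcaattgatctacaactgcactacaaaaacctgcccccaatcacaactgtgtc
Over the 250 bases before the start, Cyp2c67, Cyp2c68 and Cyp2c69 were 93.0% to 94.3% identical to each other in aligned bases, and Cyp2c38 was 89.6% identical to Cyp2c39. Between these sets identity was 70.9% to 74.7%, a range that overlapped with the values to the neighbours. Cyp2c29 was 82.0% and 81.9% identical to Cyp2c38 and Cyp2c39 and 71.8% to 77.0% to the other 3 genes, and Cyp2c37 was 73.0% to 80.6% identical to the 5 genes.

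Searched on both strands of those 250 bases, CAAAGTCCA was found before 10 of the 52 members with a RefSeq window, 6 of them among the 13 Cyp2c windows (Cyp2c40, Cyp2c65, Cyp2c67, Cyp2c68, Cyp2c69 and Cyp2c70), and in 0.384% of all 32851 RefSeq windows. The shorter CAAAGTC, which lies inside CAAAGTCCA, was before 18 of 52 members and in 3.84% of all windows. The 4 other members with CAAAGTCCA were Cyp3a11, Cyp3a16, Cyp3a41a and Cyp3a41b. The nuclear receptor half-site AGGTCA was before 14 of 52 members (14.0% of all windows), and the aryl hydrocarbon receptor core GCGTG before 8 of 52 (28.2% of all windows), Cyp1a1 and Cyp1b1 among them. The tested members with the longer core were Cyp2c67, Cyp2c68, Cyp2c69, Cyp3a11 and Cyp2c70, which makes the muricholic acids of the mouse. Their log2 fold changes in high-iron against sufficient-iron livers were -0.69 ± 0.11, -0.84 ± 0.14, -0.78 ± 0.35, -0.59 ± 0.24 and 0.02 ± 0.20, in that order. The Cyp3a11 value was -0.24 without sufficient-iron replicate 6. Any link between the core and these values was not tested.

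The close copies also share coding sequence. Of the 50-base stretches of the transcript, 47.2% in Cyp2c67, 56.7% in Cyp2c68 and 45.2% in Cyp2c69 occur in no other gene, and for each of them Cyp2c40 shares the most. The counts of these genes rest on the unshared parts and could be split between them, while Cyp2c38, at 92.6% unshared, is less exposed to this.

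**Figure D3:**
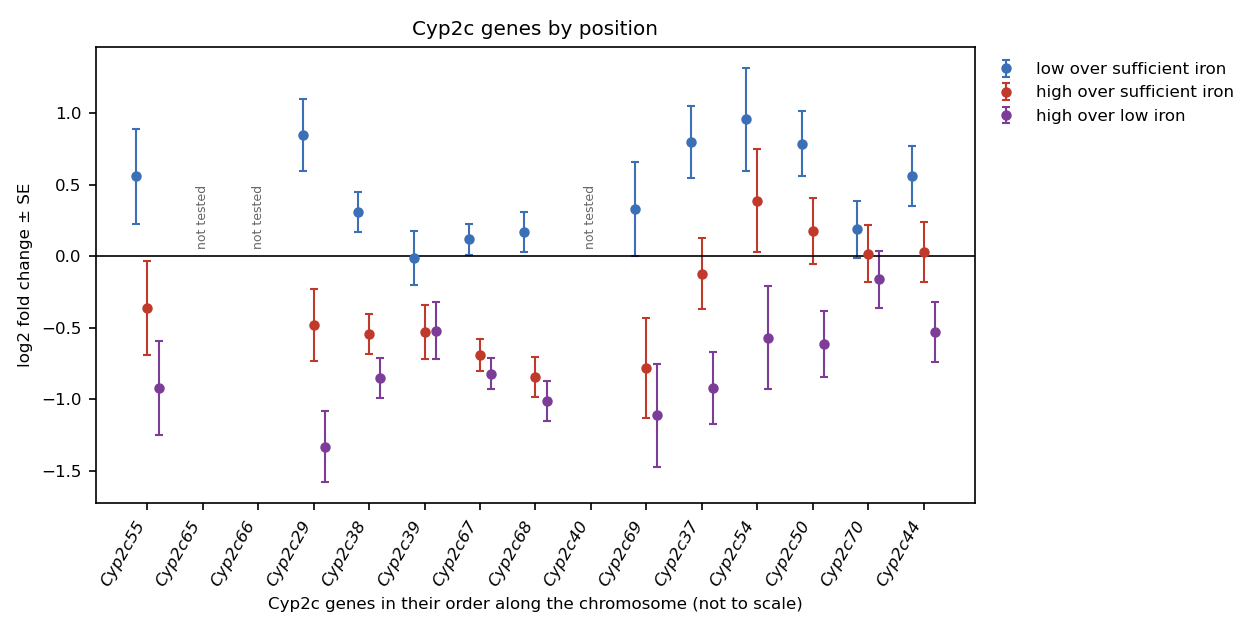
Log2 fold change with its SE (error bars) for the 12 tested of the 15 Cyp2c genes, in their order along chromosome 19, for low over sufficient, high over sufficient and high over low iron. Values for high over sufficient iron run from -0.53 to -0.84 between Cyp2c38 and Cyp2c69, and from -0.12 to 0.39 between Cyp2c37 and Cyp2c70. On the other side of Cyp2c38, Cyp2c29 has -0.48 ± 0.25 and Cyp2c55 has -0.36 ± 0.33.

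No Cyp2c gene was called in low-iron against sufficient-iron livers. Cyp2c29, the most abundant of the subfamily and an arachidonate-oxidising form that CAR induces, had 2008, 3003 and 1725 CPM in low-iron, 1733, 1050 and 960 CPM in sufficient-iron and 875, 982 and 832 CPM in high-iron livers. Its low-iron libraries lay above all high-iron libraries and overlapped with 1 sufficient-iron library. The log2 fold change was -1.33 ± 0.25 in high-iron against low-iron livers (edgeR adjusted p = 0.0544) and 0.85 ± 0.25 in low-iron against sufficient-iron livers (adjusted p = 0.446). Cyp2c54 had 183, 195 and 166 CPM in low-iron, 140, 36.2 and 104 CPM in sufficient-iron and 111, 130 and 125 CPM in high-iron livers, and its log2 fold change of 0.96 ± 0.36 in low-iron against sufficient-iron livers drew on the single value of 36.2 CPM in replicate 6. Without that library it was 0.57. In high-iron against low-iron livers all 12 tested Cyp2c members had negative log2 fold changes (median -0.83), beside 48.8% of all genes with positive ones. An unadjusted p under 0.05 was found for 10 of them, beside 5.44% of all genes lower, and 3 were called, beside 0.346% called lower.

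The Cyp2a enzymes lie on chromosome 7 and differed among themselves. Cyp2a12, a steroid and bile acid hydroxylase of mouse liver, had 244, 274 and 280 CPM in low-iron, 202, 189 and 192 CPM in sufficient-iron and 169, 175 and 145 CPM in high-iron livers. The 3 diets did not overlap and were ordered by iron. It fell by 0.71 ± 0.11 in high-iron against low-iron livers (edgeR adjusted p = 0.0313), with 0.45 ± 0.11 in low-iron against sufficient-iron livers (adjusted p = 0.446) and -0.25 ± 0.11 in high-iron against sufficient-iron livers (adjusted p = 0.538). The call was lost without low-iron replicate 5 or 9 (adjusted p = 0.102 and 0.115) or any one high-iron library (0.0924 to 0.132), and with only the 6 libraries compared (0.0522).

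Cyp2a5, the coumarin and nicotine hydroxylase, whose message is known to rise with haem disturbance and liver injury in the mouse, stood higher in the high-iron livers. It had 158, 193 and 282 CPM in low-iron, 110, 118 and 148 CPM in sufficient-iron and 181, 328 and 303 CPM in high-iron livers, so that both extremes lay above all sufficient-iron libraries and overlapped with each other. The log2 fold change was 1.11 ± 0.26 in high-iron against sufficient-iron livers (edgeR adjusted p = 0.154, and 0.00372 in DESeq2, within a range of 0.00372 to 0.607 over the alternatives). In low-iron against sufficient-iron livers it was 0.75 ± 0.25 (adjusted p = 0.446). Dbp, the clock output factor that drives Cyp2a5 in mouse liver, had 5.38, 7.75 and 32.7 CPM in low-iron, 5.39, 5.66 and 27.1 CPM in sufficient-iron and 7.69, 30.8 and 45.5 CPM in high-iron livers, in the same library order. In each diet the libraries with high Dbp were the ones with more Cyp2a5, and 2 of 3 high-iron libraries but 1 of 3 in each other diet had high Dbp. By the numbers in the sample titles, Dbp was at most 7.75 CPM in the libraries numbered 1 to 6 and at least 27.1 CPM in those numbered 8 to 12, and the labels do not say what the numbers mark. Dbp was looked at after its values were seen, and its part in the Cyp2a5 difference was not tested. Cyp2a4, a female-type testosterone hydroxylase, had 0.390, 0.585 and 2.54 CPM in low-iron, 0.364, 11.8 and 0.166 CPM in sufficient-iron and 1.67, 2.71 and 4.33 CPM in high-iron livers, and replicate 6 set its sufficient-iron mean. Its log2 fold change in low-iron against sufficient-iron livers was -1.73 ± 1.26, and 2.28 without that library. Cyp2a4 and Cyp2a5 share sequence, with 61.2% and 59.2% of the 50-base stretches in no other gene.

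**Figure D4:**
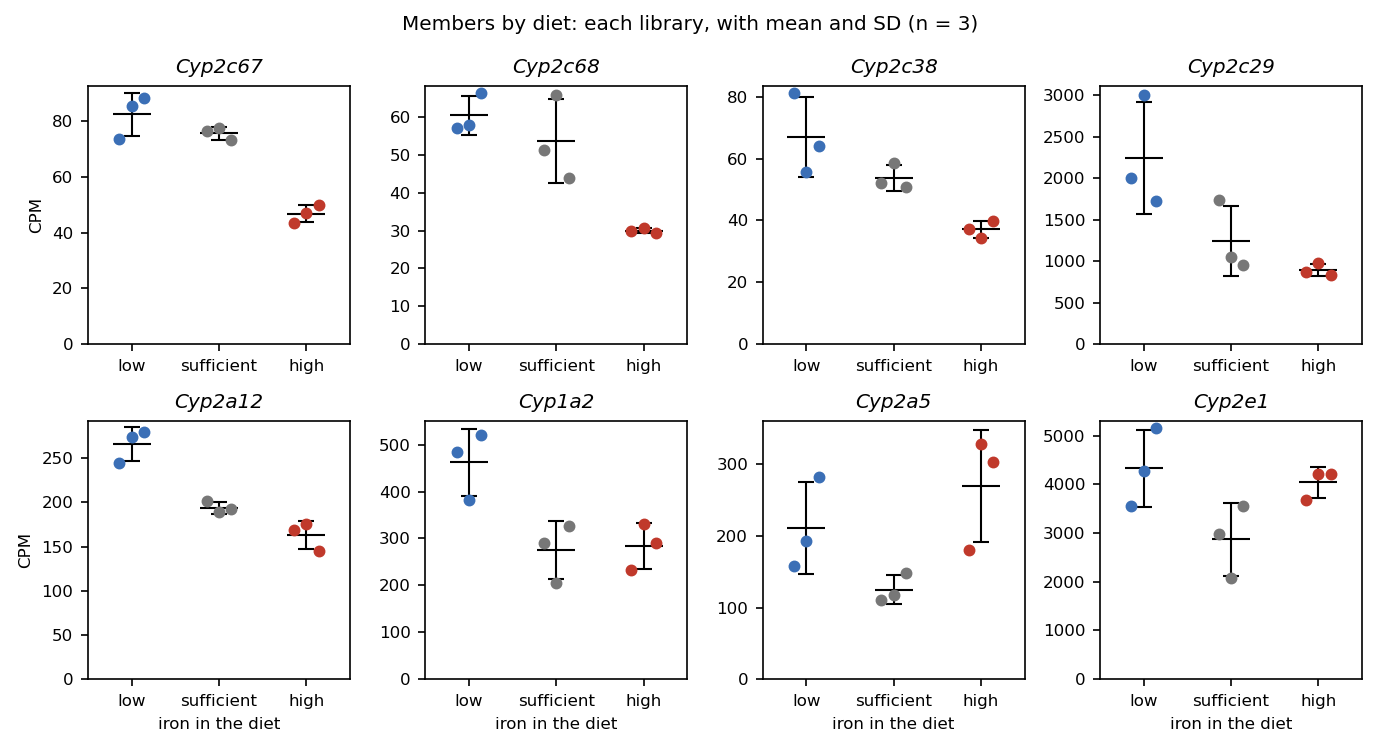
CPM of 8 members in each library by diet, with the mean and SD of 3 libraries (bar and whiskers). The high-iron libraries of Cyp2c67 (43.6 to 49.8 CPM), Cyp2c68 (29.4 to 30.7 CPM) and Cyp2c38 (34.4 to 39.8 CPM) sit below every other library, while those of Cyp2a5 (181 to 328 CPM) sit above every sufficient-iron library.

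In family 1, Cyp1a2, which oxidises caffeine and aromatic amines and is needed for experimental uroporphyria in mice, had 484, 382 and 521 CPM in low-iron, 291, 206 and 326 CPM in sufficient-iron and 232, 331 and 290 CPM in high-iron livers. The low-iron libraries lay above the other 6, and sufficient and high iron overlapped. The log2 fold change was 0.75 ± 0.20 in low-iron against sufficient-iron livers (edgeR adjusted p = 0.446, and 0.00954 in DESeq2, within a range of 0.00954 to 0.835) and 0.05 ± 0.20 in high-iron against sufficient-iron livers. Cyp1a1, the form most strongly induced through the aryl hydrocarbon receptor, stayed at 0.692 to 1.82 CPM, with -0.37 ± 0.28 in low-iron against sufficient-iron livers. Cyp1b1, an extrahepatic form of the family, stayed at 0.329 to 2.44 CPM, with -0.67 ± 0.59, and -0.07 without sufficient-iron replicate 6. Of 6 tested genes of the same receptor's battery outside family 1, among them Nqo1, 0 were called in any of the pairwise comparisons, with 3 positive and 3 negative log2 fold changes in low-iron against sufficient-iron livers and a median of -0.03.

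The Cyp2d enzymes are steroid and drug hydroxylases in a cluster on chromosome 15. All 7 tested members had positive log2 fold changes in low-iron against sufficient-iron livers (median 0.52), beside 49.4% of all genes. In 6 of the 7 every low-iron library lay above every sufficient-iron library, beside 8.81% of all genes. None was called. Cyp2d9, the male-type testosterone hydroxylase and the most abundant, had 750, 722 and 620 CPM in low-iron, 488, 194 and 513 CPM in sufficient-iron and 486, 589 and 443 CPM in high-iron livers. Its log2 fold change in low-iron against sufficient-iron livers was 0.81 ± 0.30, and 0.47 without sufficient-iron replicate 6. Cyp2d10 had 395, 291 and 286 CPM in low-iron, 231, 189 and 235 CPM in sufficient-iron and 211, 273 and 219 CPM in high-iron livers, with 0.57 ± 0.16 in low-iron against sufficient-iron livers (edgeR adjusted p = 0.446). In high-iron against sufficient-iron livers 5 of the 7 were positive and 2 negative, and 0 had an unadjusted p under 0.05. In high-iron against low-iron livers 6 of the 7 were negative (median -0.47), and 0 were called. Unadjusted, 3 of these were lower, beside 5.44% of all genes. In 6 every high-iron library lay below every low-iron library, beside 8.15% of all genes. Cyp2d40, named after its values were seen, had the lowest value there (-0.97 ± 0.24, edgeR adjusted p = 0.12).

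Cyp2e1 had 3565, 4276 and 5152 CPM in low-iron, 2974, 2069 and 3566 CPM in sufficient-iron and 3677, 4220 and 4222 CPM in high-iron livers. High-iron libraries lay above all sufficient-iron libraries, while 1 low-iron library lay just below the highest of them. The log2 fold change was 0.49 ± 0.20 in high-iron against sufficient-iron livers (edgeR adjusted p = 0.517) and 0.59 ± 0.20 in low-iron against sufficient-iron livers (adjusted p = 0.446). Without sufficient-iron replicate 6, the lowest library, these were 0.30 and 0.40. In the fit to all libraries the extremes differed by -0.10 ± 0.20 (high against low iron).

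Among the Cyp3a enzymes, which carry out much of steroid and drug oxidation and answer to PXR, Cyp3a11 had 1228, 1237 and 1065 CPM in low-iron, 1156, 1750 and 762 CPM in sufficient-iron and 875, 737 and 824 CPM in high-iron livers. The spread of the sufficient-iron libraries covered nearly the whole range, and the log2 fold change in high-iron against sufficient-iron livers was -0.59 ± 0.24 (edgeR adjusted p = 0.517), and -0.24 without sufficient-iron replicate 6, the highest library. Cyp3a25 had 327, 325 and 311 CPM in low-iron, 201, 234 and 272 CPM in sufficient-iron and 284, 287 and 270 CPM in high-iron livers, with 0.44 ± 0.12 in low-iron against sufficient-iron livers (adjusted p = 0.446) and 0.25 ± 0.12 in high-iron against sufficient-iron livers (adjusted p = 0.568). Cyp3a13 and Cyp3a59, at 79.0 to 104 and 4.74 to 11.8 CPM, had log2 fold changes between -0.31 and 0.14 in these comparisons. The -0.31 was that of Cyp3a59 in high-iron against sufficient-iron livers, and it was 0.07 without sufficient-iron replicate 6.

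The Cyp2b enzymes, the classical targets of CAR, were low and scattered. Cyp2b10 had 10.5, 25.7 and 6.87 CPM in low-iron, 16.1, 25.8 and 3.86 CPM in sufficient-iron and 23.5, 19.6 and 10.2 CPM in high-iron livers, a wide range within each diet, with log2 fold changes of -0.08 ± 0.64 in low-iron and 0.23 ± 0.64 in high-iron against sufficient-iron livers. Cyp2b9, a female-type form, had 2.65, 7.43 and 11.4 CPM in low-iron, 3.21, 1.82 and 0.248 CPM in sufficient-iron and 2.54, 2.30 and 9.61 CPM in high-iron livers. Its log2 fold change of 2.09 ± 0.81 in low-iron against sufficient-iron livers was the largest of the members (edgeR adjusted p = 0.446), and the diets overlapped.

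Cyp2f2, the naphthalene-activating enzyme, which in mouse liver belongs to hepatocytes near the portal vein, had 701, 726 and 632 CPM in low-iron, 585, 598 and 533 CPM in sufficient-iron and 536, 541 and 441 CPM in high-iron livers. The log2 fold change was -0.44 ± 0.12 in high-iron against low-iron livers (edgeR adjusted p = 0.181), without overlap. Cyp2j5, an arachidonic acid epoxygenase of liver and kidney, had 458, 614 and 627 CPM in low-iron, 501, 493 and 468 CPM in sufficient-iron and 523, 459 and 481 CPM in high-iron livers, with log2 fold changes of 0.22 ± 0.14 in low-iron (0.34 without low-iron replicate 1) and 0.00 ± 0.14 in high-iron against sufficient-iron livers. Cyp2r1, the vitamin D 25-hydroxylase, stayed at 13.6 to 16.3 CPM in the 9 libraries. Cyp2s1, at 0.078 to 1.28 CPM, had 1.03 ± 0.55 in high-iron against sufficient-iron livers (edgeR adjusted p = 0.591), and 0.49 without high-iron replicate 12, a value near the limit of counting. Cyp2g1, Cyp2u1, Cyp2a22, Cyp2j6, Cyp2j9, Cyp2j13, Cyp2d12 and the other tested members not described had unadjusted p of at least 0.05 in high-iron against sufficient-iron livers. The remaining members with an unadjusted p under 0.05 in low-iron against sufficient-iron livers, listed to complete the 15, were Cyp2c37 (0.80), Cyp2c50 (0.79, and 0.53 without sufficient-iron replicate 6), Cyp2c44 (0.56, and 0.36 without it), Cyp2d26 (0.38) and Cyp2d22 (0.37, all log2 fold changes), none of them called.

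None of 17 genes for electron supply and haem synthesis or breakdown was called in any pairwise comparison. In low-iron against sufficient-iron livers 4 were higher and 1 lower at an unadjusted p under 0.05, beside 5.79% and 5.41% of all genes. Urod, which decarboxylates uroporphyrinogen, had 68.7, 51.1 and 54.9 CPM in low-iron, 43.3, 44.7 and 42.9 CPM in sufficient-iron and 38.4, 49.5 and 41.4 CPM in high-iron livers, with 0.41 ± 0.13 in low-iron against sufficient-iron livers (edgeR adjusted p = 0.446). Fech, which inserts iron into protoporphyrin, had 115, 136 and 135 CPM in low-iron, 131, 127 and 142 CPM in sufficient-iron and 166, 180 and 161 CPM in high-iron livers, with the high-iron libraries above all others (0.34 ± 0.11 in high-iron against sufficient-iron livers, adjusted p = 0.386). Other genes named by rank were the cytochrome b5 reductase Cyb5r3 (0.53 ± 0.22), the haem oxygenase Hmox1 (-0.40 ± 0.17) and the synthesis enzyme Alad (0.33 ± 0.14) in low-iron against sufficient-iron livers, the biliverdin reductase Blvrb (0.71 ± 0.23) and the haem-binding P450 partner Pgrmc1 (0.20 ± 0.11) in high-iron against sufficient-iron livers, and Cyb5b (-0.20 ± 0.14) in high-iron against low-iron livers. Por had 0.14 ± 0.32 in low-iron and 0.36 ± 0.32 in high-iron against sufficient-iron livers, and Alas1, the rate-limiting enzyme of liver haem synthesis, 0.53 ± 0.62 and -0.19 ± 0.62; both were added for their role.

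None of the 24 tested regulators of these enzymes was called either, with medians of 0.15 in low-iron and 0.12 in high-iron against sufficient-iron livers (0.03 and 0.04 without sufficient-iron replicate 6). By rank, the bile acid receptor gene Nr1h4 had 0.34 ± 0.14, the aryl hydrocarbon receptor's partner Arnt -0.30 ± 0.13, Foxa2 0.28 ± 0.13 and the CAR gene Nr1i3 0.35 ± 0.17 in low-iron against sufficient-iron livers. Against the same livers, high-iron livers had Foxa2 at 0.36 ± 0.13, Cebpb at 0.66 ± 0.31, Nr0b2 at 0.68 ± 0.39 and Stat5b at -0.16 ± 0.10. In high-iron against low-iron livers the clock-linked repressor Nfil3 had -0.80 ± 0.40, the PXR gene Nr1i2 -0.22 ± 0.12 and Nr1h4 -0.24 ± 0.14. Hnf4a lay between 397 and 470 CPM in all 9 libraries.

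Levels of markers of hepatocyte position and of other liver cells are given beside those of the members. Of 18 pericentral markers outside these families, 3 were called lower in high-iron against low-iron livers, beside 0.346% of all genes. These were Oat (-1.14), Rhbg (-1.51) and Gulo (-0.85), named after their values were seen. At an unadjusted p under 0.05, 9 of the 18 were lower, beside 5.44% of all genes, and the median was -0.48. Beside the same shares of all genes, 1 of 14 tested periportal markers was called lower in that comparison, the urea cycle enzyme Asl (-0.82). Unadjusted, 7 of the 14 were lower, and the median was -0.37. The 9 hepatocyte markers were all negative (median -0.36), with 4 at an unadjusted p under 0.05 and 0 called. Every high-iron library lay below every low-iron library in 50% of pericentral, 42.9% of periportal and 77.8% of hepatocyte markers. That share was 57.1% of the members and 8.15% of all genes. In low-iron against sufficient-iron livers the medians of these marker lists were 0.18, 0.27 and 0.17, beside 0.34 for the members, with 0 called. Positive values were found for 13 of 18, 12 of 14 and 8 of 9, beside 49.4% of all genes. Pericentral markers summed to 3710 to 4183 CPM in low-iron, 2957 to 3324 CPM in sufficient-iron and 2677 to 2868 CPM in high-iron livers. Kupffer cell markers summed to 129 to 298 CPM in low-iron, 295 to 464 CPM in sufficient-iron and 249 to 310 CPM in high-iron livers. In low-iron against sufficient-iron livers 11 of 11 were negative (median -0.64). An unadjusted p under 0.05 was found for 8 of them, beside 5.41% of all genes lower, and 0 were called. Low-iron replicate 1 was the lowest of the 9 libraries for all 11. Its sum was 129 CPM, against 270 and 298 CPM in low-iron replicates 5 and 9. Without that library the median was -0.44, with 7 lower at an unadjusted p under 0.05, beside 3.91% of all genes. Endothelial markers had a median of -0.32 in that comparison with 0 of 10 called, and -0.13 without low-iron replicate 1, the lowest library for all 10. Stellate markers had a median of -0.37 with 0 of 10 called, and -0.08 without sufficient-iron replicate 6, the highest library for all 10. For bile duct markers the median was -0.78 with 0 of 9 called, and -0.50 without sufficient-iron replicate 6. Of 9 tested blood cell markers, 1 was called lower in high-iron livers, against sufficient-iron and against low-iron livers. Of all genes, 0.115% and 0.346% were called lower in these comparisons. It was Alas2, the haem synthesis enzyme of red cell precursors (-1.06 against sufficient-iron and -1.58 against low-iron livers). Over the 9 blood cell markers, 4 log2 fold changes were positive and 5 negative in each of these comparisons, with medians of -0.30 and -0.05. The part of these markers in the members' levels was not tested, and in whole liver fewer cells of a type and less RNA per cell cannot be told apart.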

How the data were processed

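RNA from whole liver was sequenced from TruSeq libraries, 1 per mouse. The authors deposited raw read counts per gene symbol. For the aligner, counter, annotation and strand setting the sources used here give nothing. The 5 rows of reads without a gene, ambiguous or not unique were kept out of library sizes; reads with no feature were 13.4% to 25.9% of the unique reads. FastQC, mm10 and mm9 appear in the submitters' processing notes without a stated role. Counts were scaled by TMM and tested across all 9 libraries with edgeR 4.0.16 (R 4.3.3; filterByExpr, robust quasi-likelihood F-test, diet as the only term, Benjamini-Hochberg adjustment over 13020 genes, threshold 0.05). SE is the size of the log2 fold change divided by the square root of F. Alternatives used DESeq2 1.42.0, limma 3.58.1, other scalings and filters, and libraries left out.

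Members, lists and tests were chosen with earlier results of these data known. Named members had the lowest p in each direction and comparison (up to 4), the lowest p over the 3 diets, the largest changes (up to 3, at a mean of 1 CPM or more) or the highest level of their subfamily; regulators and haem genes were named by lowest p (up to 4), and some of these are not reported here. Positions are from GENCODE M21 and RefSeq GRCm38.p6.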

Additional observations from a re-analysis of the deposited data

How the results depend on the processing

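The title numbers are not shared between diets and the labels pair no libraries. A replicate block by runs of title numbers (1 to 4, 5 to 8 and 9 to 12), added after seeing the data, called 0 genes and 0 members in low-iron against sufficient-iron, 32 and 0 in high-iron against sufficient-iron and 40 and 2 (Cyp2c67 and Cyp2c68) in high-iron against low-iron livers, and 19 and 0 over the 3 diets. Deviations from the diet means correlated at -0.31 to 0.32 between libraries of 1 run. With 3 libraries per diet, calls on the members changed with the libraries left out, and the cause of each change below was not tested. Genes called in low-iron against sufficient-iron livers were 105 in DESeq2, where 11864 genes had no adjusted p, 2 in limma-voom with quality weights, 0 to 1 without any one library, and 1 in both double omissions (low-iron replicate 1 with sufficient-iron replicate 6, or with high-iron replicate 12). Members called were 11 in DESeq2, and their median was 0.27 to 0.40 without any one library.

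For high-iron against sufficient-iron livers, 28 genes and 1 member were called. These became 66 and 2 at an adjusted p under 0.10, 45 and 2 without a filter, 215 and 4 in DESeq2, 92 and 2 in limma-voom with quality weights, 11 and 0 with the Rn45s share as a covariate, and 45 and 2 with transcript length offsets. They were 0 to 56 and 0 to 2 without any one library, 63 and 2 without low-iron replicate 1 and sufficient-iron replicate 6, and 17 genes without low-iron replicate 1 and high-iron replicate 12.

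For high-iron against low-iron livers, 66 genes and 4 members became 168 genes at an adjusted p under 0.10, 365 and 10 in DESeq2, 378 and 10 in limma-voom with quality weights, 32 genes with the Rn45s covariate, and 107 genes with length offsets. They were 0 to 112 and 0 to 6 without any one library, 288 and 9 in the first double omission and 31 and 1 in the second. The members' median of -0.45 became -0.35 with a filter of 1 CPM, -0.45 to -0.36 without any one library, and -0.37 and -0.34 in the double omissions.

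Over the 3 diets, 28 genes and 2 members became 96 and 4 at an adjusted p under 0.10, 52 genes without a filter, 413 and 11 in DESeq2, 230 and 5 in limma-voom with quality weights, 14 and 0 with the Rn45s covariate, and 48 and 1 with length offsets; 1 member was called with upper-quartile scaling and with the 1 CPM filter. The values were 0 to 68 genes and 0 to 3 members without any one library, 192 and 6 in the first double omission and 15 and 1 in the second.

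Among the members named by p, size of change or level, signs turned in 3, Cyp2a4, Cyp2s1 and Cyp2a5. Members outside that rule turned too. In high-iron against sufficient-iron livers Cyp2c55 went from -0.36 to 0.11 and Cyp3a59 from -0.31 to 0.07 without sufficient-iron replicate 6. In low-iron against sufficient-iron livers Cyp2j9 went from 0.40 to -0.03 without low-iron replicate 1. In low-iron against sufficient-iron livers Cyp2a4 became 1.65 with quality weights, 2.28 without sufficient-iron replicate 6 (-3.04 to 2.28 without any one library) and 2.60 in the first double omission. Cyp2s1 became 0.08 without low-iron replicate 1 (-0.91 to 0.08 without any one library) and 0.25 and 0.09 in the double omissions. In high-iron against low-iron livers Cyp2a5 became -0.02 with quality weights. Of the other values of named members, 979 kept their direction and side of the threshold, 37 no longer passed it and 24 newly did. Members under about 1 CPM, such as Cyp2s1 and Cyp2c69, are limited by their read counts.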
